A study of Mus musculus with 24 samples.

Results

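The thrombospondins are secreted, calcium-binding glycoproteins of the extracellular matrix. The family was taken as every gene of the deposited count table whose symbol is Thbs1, Thbs2, Thbs3, Thbs4 or Comp, the last being thrombospondin 5. The rule found 5 of 52724 gene entries, 1 for each symbol, and all 5 had enough counts to be tested. Thbs1 and Thbs2 form trimers that carry type 1 repeats, bind CD36 and CD47, and restrain the growth of blood vessels, and Thbs1 also activates latent TGF-beta. Thbs3, Thbs4 and Comp form pentamers without type 1 repeats and act as organisers of collagen and cell attachment. In stressed heart muscle thrombospondins are also known inside the cell, where Thbs4 binds the endoplasmic reticulum stress sensor ATF6 and helps integrins and dystroglycan reach the muscle cell membrane.

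RNA from whole mouse hearts was sequenced in 24 libraries, 6 for each of 4 genotypes, with 3 of each 6 in batch 1 and 3 in batch 2; the labels do not say what separates the batches. FKl/l hearts carry floxed Fkbp1a, the gene of the prolyl isomerase FKBP12, and their label names no Cre. FKl/l MHC+ hearts carry the floxed gene and Cre driven by the alpha-myosin heavy chain promoter, stated to be active from embryonic day 9, and FKl/l MCK+ hearts carry it with Cre driven by the muscle creatine kinase promoter, stated to be active from embryonic day 13. MHC CRE Only hearts carry the alpha-myosin heavy chain Cre, and their label names no floxed gene. A group with the muscle creatine kinase Cre alone is not analysed here, so that driver cannot be told apart from the deletion. Both promoters drive Cre in muscle cells, whereas the libraries come from the whole organ; fewer cells of a type and less RNA per cell cannot be told apart in them. The labels used here give no age, and whether every library is a different animal is not stated, so a p-value reflects only how far the deposited libraries scatter.

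The libraries held 27799403 to 40412640 counts in gene entries. Levels are given in CPM, counts relative to library size after scaling by edgeR's TMM factors. Fkbp1a was at 130 ± 10.1 CPM (SD, n = 6) in FKl/l and at 122 ± 20.5 in MHC CRE Only, against 65.0 ± 10.7 in FKl/l MCK+ and 59.1 ± 12.6 in FKl/l MHC+. The library labelled MHC CRE Only 1-3 was at 81.7 CPM, close to the highest FKl/l MCK+ library at 81.1, so the members' differences from MHC CRE Only are also given without it. Fkbp1a was lower than in FKl/l by a log2 fold change of -1.004 in FKl/l MCK+ (edgeR adjusted p = 0.000320) and -1.15 in FKl/l MHC+ (SE 0.125, edgeR adjusted p = 5.47e-06). Cardiomyocyte markers were high in every library, with 10 genes summing to between 46383 and 59393 CPM. Libraries FKl/l 1-1 and MHC CRE Only 2-3 held airway transcripts, with 10 airway and lung genes summing to 269 and 820 CPM; the next were MHC CRE Only 1-2 at 53.1, FKl/l MHC+ 2-1 at 46.1 and MHC CRE Only 2-1 at 36.0 CPM, and the medians were 2.24 in FKl/l, 27.5 in MHC CRE Only, 3.02 in FKl/l MCK+ and 6.56 in FKl/l MHC+. Genes were called where edgeR's quasi-likelihood test, with batch as a term and all 24 libraries in the fit, gave a Benjamini-Hochberg adjusted p under 0.05 over 16018 genes.

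By mean level per length of exon, Comp and Thbs4 were the most abundant members. In FKl/l hearts Comp averaged 4.60 ± 2.15 CPM per kb (SD, n = 6) and Thbs4 1.93 ± 0.622 CPM per kb. The other three had lower means, with Thbs2 at 1.35 ± 0.164, Thbs3 at 1.23 ± 0.332 and Thbs1 at 1.09 ± 0.276 CPM per kb. In FKl/l MHC+ hearts these 2 means were in the other order, with Thbs4 at 3.39 ± 0.398 and Comp at 2.61 ± 0.857 CPM per kb. Single libraries differed from this. Comp was the highest member in FKl/l MHC+ 1-1, at 4.02 CPM per kb against 3.04 for Thbs4. Thbs1 was the highest in 2-2, at 3.73 against 3.16 for Thbs4, and in 2-3, at 3.44 against 2.93. The summed family level had overlapping ranges among the genotypes and was not tested, at 10.2 ± 2.31 CPM per kb in FKl/l, 9.28 ± 1.63 in MHC CRE Only, 9.79 ± 0.341 in FKl/l MCK+ and 10.1 ± 0.963 in FKl/l MHC+. The shares of the members add up to the whole and include Thbs4, whose difference chose the family, so they are a description with no test. The Thbs4 share of the family ran from 12.6 over a median of 18.1 to 29.2% in FKl/l, from 16.02 over 16.9 to 21.9% in MHC CRE Only and from 20.3 over 22.2 to 23.02% in FKl/l MCK+. In FKl/l MHC+ it ran from 27.4 over 32.4 to 44.0%. Comp was 43.5 ± 9.40%, 43.0 ± 3.74% and 40.5 ± 4.69% in the first 3 of these genotypes and 25.9 ± 8.18% in FKl/l MHC+. These shares use the summed exon length of each gene, since the transcripts in use were not resolved.

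**Figure D1:**
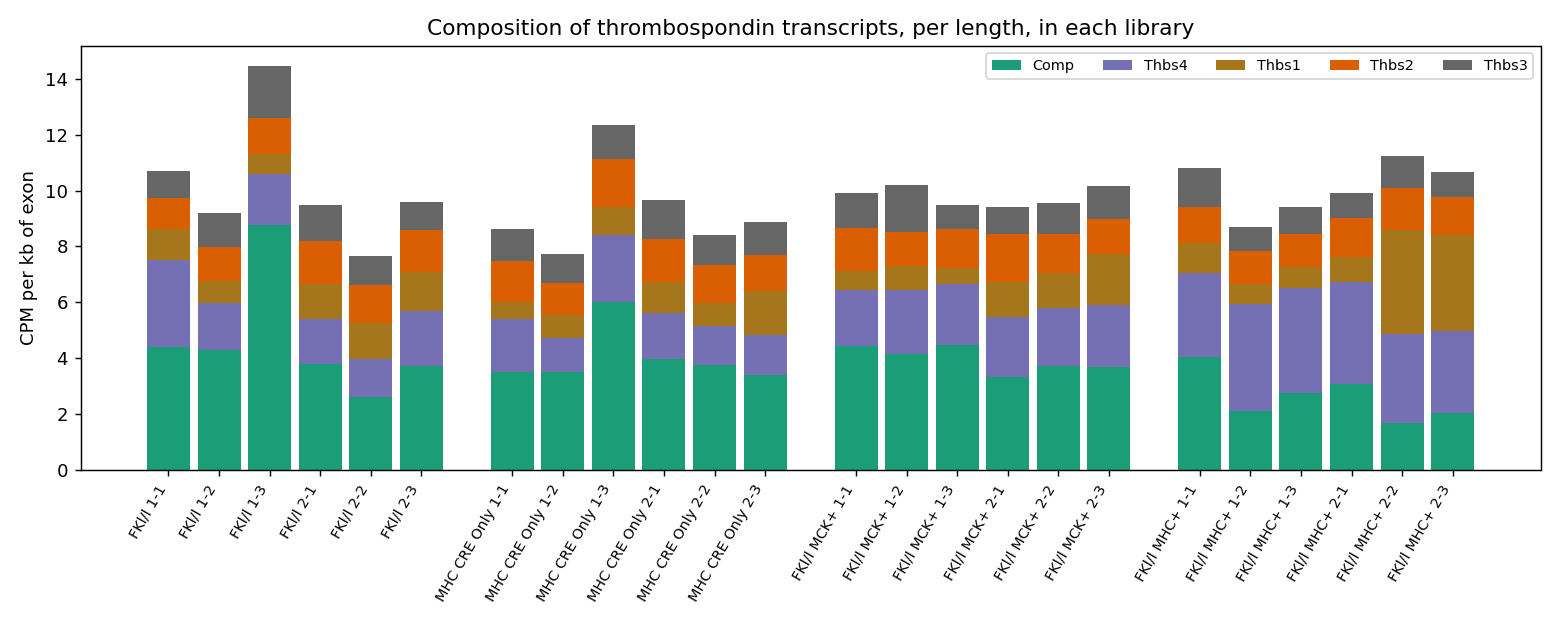
Thrombospondin transcripts in each of the 24 libraries, as CPM per kb of exon on the vertical axis, stacked by member and ordered by genotype along the horizontal axis. The Thbs4 segment takes a median of 32.4% of the bar in FKl/l MHC+ and of 16.9 to 22.2% in the other genotypes, and the Thbs1 segment is widest in FKl/l MHC+ 2-2 and 2-3.

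Thbs4, an adhesive pentamer known to rise in overloaded heart muscle, was the member with the clearest separation by genotype. The gene lies on the minus strand at chr13:92751590-92794818 (GRCm38). The promoter window of Thbs4 is printed because its level differed most, and that of Thbs2 because its level differed least. Both are RefSeq sequences of the 250 bases before the annotated start (GRCm38.p6, both on the minus strand), printed 5′ to 3′, at chr13:92794819-92795068 for Thbs4 and chr17:14694263-14694512 for Thbs2. Capitals mark CATTCC, the core of the muscle CAT element bound by TEAD factors, and TTTCC, the core bound by NFAT, on either strand.
Thbs4: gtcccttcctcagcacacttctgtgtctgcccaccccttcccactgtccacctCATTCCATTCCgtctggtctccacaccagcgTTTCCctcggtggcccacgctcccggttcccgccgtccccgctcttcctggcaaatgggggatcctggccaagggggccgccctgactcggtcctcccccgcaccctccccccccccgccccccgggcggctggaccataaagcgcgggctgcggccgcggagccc
Thbs2: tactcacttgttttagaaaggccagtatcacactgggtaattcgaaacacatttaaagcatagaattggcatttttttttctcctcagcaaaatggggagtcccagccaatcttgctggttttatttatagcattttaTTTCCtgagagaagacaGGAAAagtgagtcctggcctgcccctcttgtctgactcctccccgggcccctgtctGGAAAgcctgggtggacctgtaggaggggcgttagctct
The Thbs4 window held 2 copies of CATTCC that overlap each other by 1 base, and the windows of Thbs2 and Thbs3 held 0 copies, where 12.6% of 32851 windows of this length hold at least 1. TTTCC was found 1 time in Thbs4, 3 times in Thbs2 and 3 times in Thbs3, and 55.6% of all windows hold it. Of the other motifs searched on both strands, the E-box CAGCTG, the motif GATAAG of GATA factors and the AP-1 motif TGANTCA had 0 matches in the 3 windows. The box CCAAT was found 2 times in Thbs2, 1 time in Thbs3 and 0 times in Thbs4, and the Sp1 motif GGGCGG 3 times in Thbs4, 1 time in Thbs3 and 0 times in Thbs2. In this order, these motifs are held by 13%, 6.55%, 6.75%, 33.8% and 32.7% of all windows. The Thbs4 window was rich in G and C, at 70.8% of bases against 46.8% for Thbs2, 58.8% for Thbs3 and a median of 52.4%. The motifs were chosen after the Thbs4 window had been read, so the matches are a description of the sequence and say nothing of binding. Only 3 of the 5 members were matched to the RefSeq table, and no window is shown for Thbs1 and Comp.

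In FKl/l hearts Thbs4 ranged from 4.55 CPM over a median of 5.73 to 10.3 CPM, the highest being FKl/l 1-1. In MHC CRE Only hearts it ranged from 4.08 over 5.06 to 7.90 CPM, the highest being the library labelled MHC CRE Only 1-3. FKl/l MCK+ hearts lay in a narrow band from 6.61 over 7.10 to 7.46 CPM. In FKl/l MHC+ hearts Thbs4 ranged from 9.63 over 11.2 to 12.6 CPM. All 6 FKl/l MHC+ libraries were above every MHC CRE Only and every FKl/l MCK+ library. Against FKl/l, 4 of the 6 were above every library, since FKl/l 1-1 overlapped the lower end, and this library also held airway transcripts. The family was put forward because Thbs4 was known to differ between FKl/l MHC+ and FKl/l, so its differences in the comparisons that contain FKl/l MHC+ are given as a description, without a p-value. Thbs4 was higher in FKl/l MHC+ by a log2 fold change of 0.83 (SE 0.142, 95% interval 0.54 to 1.12) against FKl/l. The difference was 1.03 (SE 0.143, 0.73 to 1.32) against MHC CRE Only and 0.65 (SE 0.141, 0.36 to 0.94) against FKl/l MCK+. Without FKl/l 1-1 the first of these was 0.99, and the second was 1.13 when the library labelled MHC CRE Only 1-3 was left out. Within batch 1 the 3 differences were 0.72, 0.98 and 0.76, and within batch 2 they were 0.97, 1.10 and 0.59.

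Of the 5 members, Thbs4 alone was called in each of these 3 comparisons, beside 1.71% of all tested genes called against FKl/l, 1.87% against MHC CRE Only and 2.15% against FKl/l MCK+; nothing is read from that count, since Thbs4 chose the family. In the comparisons that the choice did not use, Thbs4 differed little. FKl/l MCK+ was above FKl/l by 0.17 (SE 0.143, 95% interval -0.12 to 0.47, edgeR adjusted p = 0.999). MHC CRE Only was below FKl/l, at -0.20 (SE 0.144, -0.50 to 0.097, edgeR adjusted p = 0.596). By edgeR 0 of the 5 members were called in either comparison, beside 0.0499% and 0.0437% of all genes; 0 had an unadjusted p under 0.05 in either, and DESeq2 and limma voom also called 0. Neither FKl/l MCK+ nor MHC CRE Only therefore separated from FKl/l beyond the spread, and FKl/l MHC+ had the highest mean level. FKl/l MCK+ and MHC CRE Only, the highest and lowest means of the other genotypes, were not tested against each other. Thbs4 was at 6.61 to 7.46 CPM in the first and at 4.08 to 7.90 CPM in the second, with medians of 7.10 and 5.06 CPM. Of 10 skeletal muscle markers, among which 6 could be tested, Mylpf, a fast myosin light chain, was higher in FKl/l MHC+ by 2.31 against FKl/l (edgeR adjusted p = 7.33e-06), 1.13 against MHC CRE Only (edgeR adjusted p = 0.0199) and 1.97 against FKl/l MCK+ (edgeR adjusted p = 0.000132). Tnni2, a fast troponin, was higher against FKl/l by 1.05 (edgeR adjusted p = 0.00881). The fast myosins Myh4 and Myh1 were at 0 in 22 and 12 of the 24 libraries, and Mylpf did not exceed 2.82 CPM in any library. Ckm, which heart muscle also expresses, made up most of that list's sum, which ran from 2942 to 3483 CPM in FKl/l MHC+, 2348 to 3601 in FKl/l, 3200.0 to 3967 in MHC CRE Only and 2203 to 3798 in FKl/l MCK+. The change of the FKl/l MHC+ difference from batch 1 to batch 2 was 0.28 on the log2 scale (SE 0.286, edgeR adjusted p = 0.711).

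**Figure D2:**
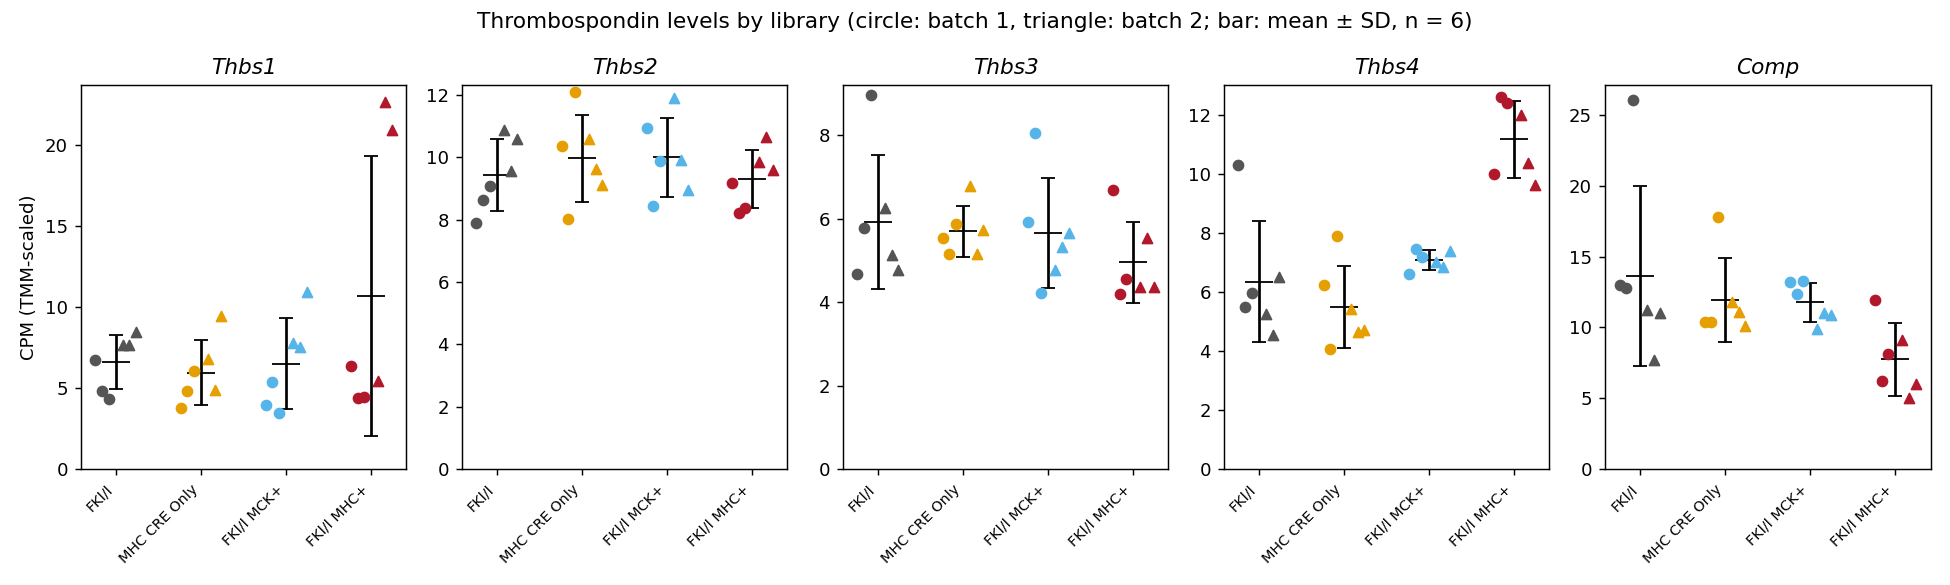
Level of each member in CPM (vertical axis, from 0) in the 24 libraries, grouped by genotype along the horizontal axis, with circles for batch 1, triangles for batch 2 and bars for the mean ± SD of 6 libraries. Thbs4 lies between 9.63 and 12.6 CPM in FKl/l MHC+, Comp is lower there with a single high FKl/l library at 26.0 CPM, and Thbs1 has 2 high libraries in FKl/l MHC+.

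Comp, the cartilage oligomeric matrix protein that binds fibrillar collagens and is a marker of activated cardiac fibroblasts, lay on the lower side in FKl/l MHC+. The gene is at chr8:70373558-70382066 on the plus strand. In FKl/l hearts Comp ranged from 7.72 CPM over a median of 12.01 to 26.0 CPM, the highest being FKl/l 1-3. In MHC CRE Only it ranged from 10.1 over 10.7 to 17.8 CPM, the highest being the library labelled 1-3. FKl/l MCK+ ranged from 9.88 over 11.7 to 13.2 CPM, and FKl/l MHC+ from 5.03 over 7.18 to 11.9 CPM. Of the 6 FKl/l MHC+ libraries 5 were below every MHC CRE Only library and 5 below every FKl/l MCK+ library, whereas 3 were below every FKl/l library. The log2 fold change of FKl/l MHC+ was -0.79 against FKl/l (SE 0.205, 95% interval -1.22 to -0.37, edgeR adjusted p = 0.0501), just outside the threshold. It was -0.64 against MHC CRE Only (SE 0.205, -1.06 to -0.21, edgeR adjusted p = 0.113) and -0.61 against FKl/l MCK+ (SE 0.205, -1.04 to -0.18, edgeR adjusted p = 0.136). Leaving out the library labelled MHC CRE Only 1-3 gave -0.54 against MHC CRE Only (edgeR adjusted p = 0.215). The side of the threshold on which the first of these fell changed with single libraries. It passed in 7 of 24 fits that each left out 1 library, namely FKl/l 1-1 or 2-2, MHC CRE Only 1-1 or the library labelled 1-3, FKl/l MCK+ 1-2, or FKl/l MHC+ 1-1 or 2-1. Without FKl/l 1-3 the difference from FKl/l was -0.56 (edgeR adjusted p = 0.0998), and those from MHC CRE Only and FKl/l MCK+ passed at -0.63 (edgeR adjusted p = 0.0306) and -0.61 (edgeR adjusted p = 0.0330). Comp did not separate FKl/l MCK+ from FKl/l (-0.18, SE 0.201, edgeR adjusted p = 0.999) or MHC CRE Only from FKl/l (-0.16, SE 0.201, edgeR adjusted p = 0.794).

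Some markers of connective tissue were called in the same comparisons. The 10 fibroblast markers summed to between 1364 and 1660 CPM in FKl/l MHC+, 1468 and 1817 in FKl/l, 1513 and 1714 in MHC CRE Only, and 1595 and 2112 in FKl/l MCK+. Gsn and Dcn, with medians of 752 and 374 CPM over all libraries, made up most of this sum. Of these 10, 1 was called lower in FKl/l MHC+ against FKl/l (Gsn, gelsolin), 0 against MHC CRE Only and 2 against FKl/l MCK+ (Gsn and Dpt, dermatopontin). The shares of all genes called there were 1.71%, 1.87% and 2.15%. Of 8 valve interstitial markers 7 were tested. Against MHC CRE Only 1 was higher in FKl/l MHC+ (Sox9) and 1 lower (Prelp), and 0 were called against FKl/l or FKl/l MCK+. Tendon and cartilage markers, of which 6 of 11 were tested and 0 called, summed to between 24.9 and 34.3 CPM in FKl/l MHC+ and between 31.0 and 41.3 CPM in FKl/l. In MHC CRE Only they summed to between 32.3 and 55.2 CPM, and in FKl/l MCK+ to between 29.5 and 43.2 CPM. Of this list Matn3 was at 0 in 22 libraries, Col9a1 in 12, Col2a1 in 8, Tnmd in 6 and Mkx in 5. With a term for the mean fibroblast marker level in the fit, Comp was at -0.69 in FKl/l MHC+ against FKl/l (edgeR adjusted p = 0.119) and Thbs4 at 0.79, while the Thbs4 difference from FKl/l MCK+ was 0.55. Activated fibroblast markers, a list of 8 genes that holds Comp itself, summed to between 272 and 386 CPM in FKl/l MHC+ and between 210 and 338 CPM in FKl/l. In MHC CRE Only they summed to between 242 and 525 CPM, and in FKl/l MCK+ to between 225 and 414 CPM. Acta2, which is also a smooth muscle marker, made up most of this sum, with a median of 241 CPM. Of the 7 tested genes 0 were called between genotypes. The part of cell composition in these differences was not otherwise tested.

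Set against each other per length, Comp exceeded Thbs4 in all 18 libraries of the other genotypes and in 1 of 6 FKl/l MHC+ libraries. The ratio of Comp to Thbs4 ran from 1.40 over a median of 2.13 to 4.83 in FKl/l, from 1.84 over 2.46 to 2.82 in MHC CRE Only and from 1.56 over 1.81 to 2.21 in FKl/l MCK+. In FKl/l MHC+ it ran from 0.537 over 0.710 to 1.32, below every other library. As Thbs4 enters this ratio, it is a description with no test.

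**Figure D3:**
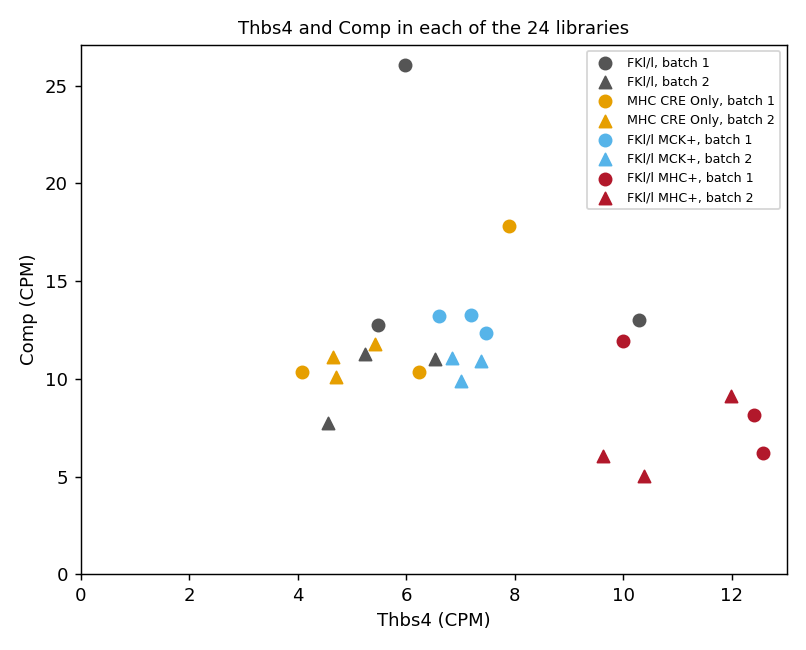
Comp against Thbs4, both in CPM, in each of the 24 libraries, with colours for the genotype and circles or triangles for batch 1 or 2. The 6 FKl/l MHC+ libraries lie to the right, at 9.63 to 12.6 CPM of Thbs4, with Comp at 5.03 to 11.9 CPM; FKl/l 1-1 is the only other library above 9 CPM of Thbs4.

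Thbs1, the activator of latent TGF-beta that platelets and stressed cells release, was set by a pair of libraries. It lies at chr2:118111876-118127133 on the plus strand. Its levels ran from 4.31 CPM over a median of 7.18 to 8.48 CPM in FKl/l, from 3.77 over 5.47 to 9.43 in MHC CRE Only and from 3.44 over 6.43 to 10.9 in FKl/l MCK+. FKl/l MHC+ ran from 4.42 over 5.88 to 22.7 CPM. There 2-2 was at 22.7 CPM and 2-3 at 20.9 CPM, above every library of the other genotypes, and the other 4 were between 4.42 and 6.34 CPM, inside the range of the rest. The log2 fold change of FKl/l MHC+ was 0.55 against FKl/l (SE 0.293, edgeR adjusted p = 0.390), 0.70 against MHC CRE Only (SE 0.296, edgeR adjusted p = 0.253) and 0.63 against FKl/l MCK+ (SE 0.293, edgeR adjusted p = 0.303). Without those 2 libraries the 3 values were -0.16, -0.013 and -0.094. Leaving out the library labelled MHC CRE Only 1-3 instead gave 0.82 against that genotype (edgeR adjusted p = 0.192). With either FKl/l MHC+ 2-2 or 2-3 left out, the difference from FKl/l was 0.32 or 0.37. FKl/l MCK+ and MHC CRE Only lay at -0.081 (SE 0.296, edgeR adjusted p = 0.999) and -0.14 (SE 0.297, edgeR adjusted p = 0.884) against FKl/l.

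Thbs1 also differed between the batches. Its median was 4.64 CPM in batch 1 and 7.72 CPM in batch 2, with ranges of 3.44 to 6.72 CPM and 4.88 to 22.7 CPM over 12 libraries each. The rise in batch 2 was 0.96 on the log2 scale (SE 0.211, edgeR adjusted p = 0.00112), and 0.63 without FKl/l MHC+ 2-2 and 2-3 (edgeR adjusted p = 0.000930). Comp fell by 0.42 on the log2 scale in batch 2 (SE 0.144, edgeR adjusted p = 0.0236), with medians of 12.6 and 10.5 CPM, and without those 2 libraries it was at -0.36 (edgeR adjusted p = 0.0772). These 2 of 5 members called stand beside 38.4% of all genes called between batches. Thbs2 (0.13, edgeR adjusted p = 0.140), Thbs3 (-0.13, edgeR adjusted p = 0.391) and Thbs4 (-0.21, edgeR adjusted p = 0.105) were not called. Thbs2 passed at 0.17 without the library labelled MHC CRE Only 1-3 (edgeR adjusted p = 0.0287), and Thbs4 passed without MHC CRE Only 1-2 (edgeR adjusted p = 0.0407). In the joint test of whether genotype differences changed with batch, edgeR called 0 of 5 members, beside 4.92% of all genes; 0 had an unadjusted p under 0.05, and DESeq2 and limma voom also called 0. For Thbs1 that test gave an edgeR adjusted p of 0.383, and 0.0251 without FKl/l MHC+ 2-1, the batch 2 library of that genotype at 5.43 CPM. Without the filter on low counts Thbs1 was called (edgeR adjusted p = 3.34e-06), where 2481 genes were called. The share of all genes rested on single libraries. With all libraries 788 genes were called, against 4 without the library labelled MHC CRE Only 1-3 and 0 without MHC CRE Only 2-1, 2-2 or 2-3.

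Immediate early genes, the transcription factors and signalling genes that cells switch on within minutes of a stimulus, were high in the same 2 libraries. The 16 genes of this list summed to 682 CPM in FKl/l MHC+ 2-3 and 618 CPM in FKl/l MHC+ 2-2, the highest of the 24 libraries, followed by MHC CRE Only 2-3 at 520 CPM. The list ranged from 298 to 481 CPM in FKl/l, 255 to 520 in MHC CRE Only and 238 to 397 in FKl/l MCK+, and the other 4 FKl/l MHC+ libraries were between 250 and 451 CPM. Over the 24 libraries, with batch means removed, Thbs1 correlated with the list's level at r = 0.73 (0.57 within batch 1 and 0.81 within batch 2, 12 libraries each), values that share library and depth. Of the 16 genes 11 were called higher in batch 2, among them Nr4a1 (1.68, edgeR adjusted p = 0.00112), Fos (1.48, edgeR adjusted p = 0.0147) and Fosl2 (0.81, edgeR adjusted p = 0.000352). Of the same genes 1 was called between genotypes, Ier3, higher in FKl/l MHC+ against FKl/l MCK+. The 12 platelet and megakaryocyte genes summed to 21.9 CPM in 2-2 and 25.3 CPM in 2-3, the highest of the FKl/l MHC+ libraries, with the other 4 between 20.4 and 23.7 CPM and FKl/l between 15.2 and 28.8 CPM. That list ran from 17.02 to 26.6 CPM in MHC CRE Only and from 15.8 to 50.0 CPM in FKl/l MCK+, and 0 of its 11 tested genes were called between genotypes. The part of either list in the Thbs1 levels was not tested.

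**Figure D4:**
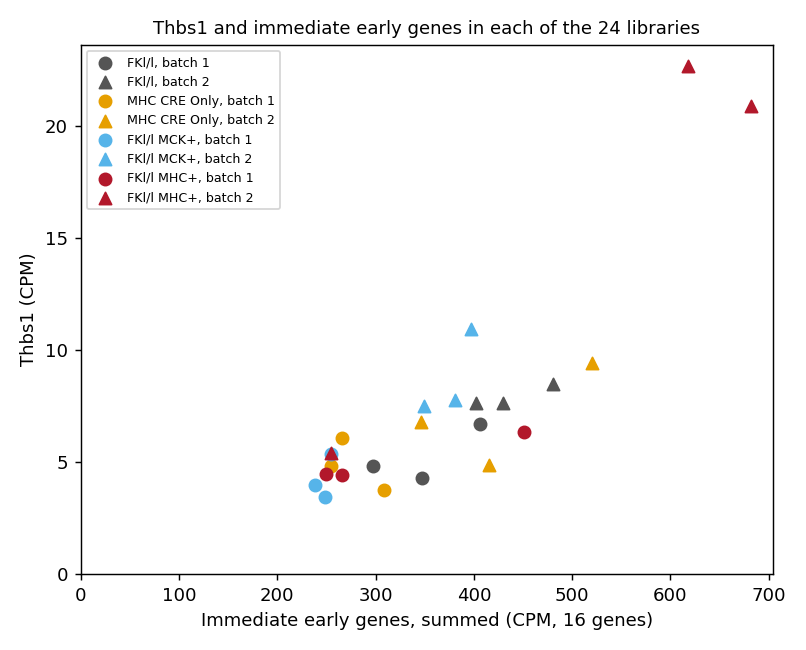
Thbs1 in CPM (vertical axis) against the summed CPM of 16 immediate early genes (horizontal axis) in each of the 24 libraries, with colours for genotype and circles or triangles for batch 1 or 2. FKl/l MHC+ 2-2 and 2-3 lie at the upper right, at 22.7 and 20.9 CPM of Thbs1, and the remaining libraries are at or below 10.9 CPM.

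Thbs2, the second trimeric member and an inhibitor of vessel growth that fibroblasts make, was the steadiest of the family. It lies at chr17:14665500-14694235 on the minus strand. Levels ran from 7.88 CPM over a median of 9.31 to 10.9 CPM in FKl/l, from 8.03 over 9.99 to 12.1 in MHC CRE Only, from 8.44 over 9.88 to 11.9 in FKl/l MCK+ and from 8.21 over 9.37 to 10.6 in FKl/l MHC+, so the 4 genotypes overlapped throughout. The coefficient of variation over all 24 libraries was 11.98%, against 21.02% for Thbs3, 34.3% for Thbs4, 37.0% for Comp and 64.6% for Thbs1. FKl/l MHC+ lay at -0.019 on the log2 scale against FKl/l, with a 95% interval of -0.22 to 0.18 (SE 0.0959, edgeR adjusted p = 0.950). The other 4 differences lay between -0.11 and 0.087, with edgeR adjusted p from 0.651 to 0.999. The difference from MHC CRE Only was -0.02 when the library labelled 1-3 was left out (edgeR adjusted p = 0.942).

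Thbs3, a pentameric member expressed in many tissues, varied within genotypes more than between them. It lies at chr3:89215180-89226837 on the plus strand and shares 318 bases of exon with Mtx1 on the other strand; the strand setting of the counting is not given in the sources used here, so reads of those bases cannot be told apart. Levels ran from 4.67 CPM over a median of 5.44 to 8.95 CPM in FKl/l, from 5.15 over 5.62 to 6.79 in MHC CRE Only, from 4.21 over 5.49 to 8.04 in FKl/l MCK+ and from 4.20 over 4.46 to 6.68 in FKl/l MHC+. Of the 6 FKl/l MHC+ libraries 4 were below every FKl/l library, and the ranges overlapped. FKl/l MHC+ lay at -0.26 against FKl/l (SE 0.153, 95% interval -0.57 to 0.055, edgeR adjusted p = 0.444). Its differences were -0.21 against MHC CRE Only (edgeR adjusted p = 0.549) and -0.19 against FKl/l MCK+ (95% interval -0.51 to 0.12), neither past the threshold, and the first was -0.22 without the library labelled MHC CRE Only 1-3. The libraries highest in Thbs3, FKl/l 1-3 and FKl/l MCK+ 1-2, were also the 2 highest of the 24 in summed fibroblast markers, at 1817 and 2112 CPM. With the fibroblast term Thbs3 was at -0.098 in FKl/l MHC+ against FKl/l (edgeR adjusted p = 0.821).

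**Figure D5:**
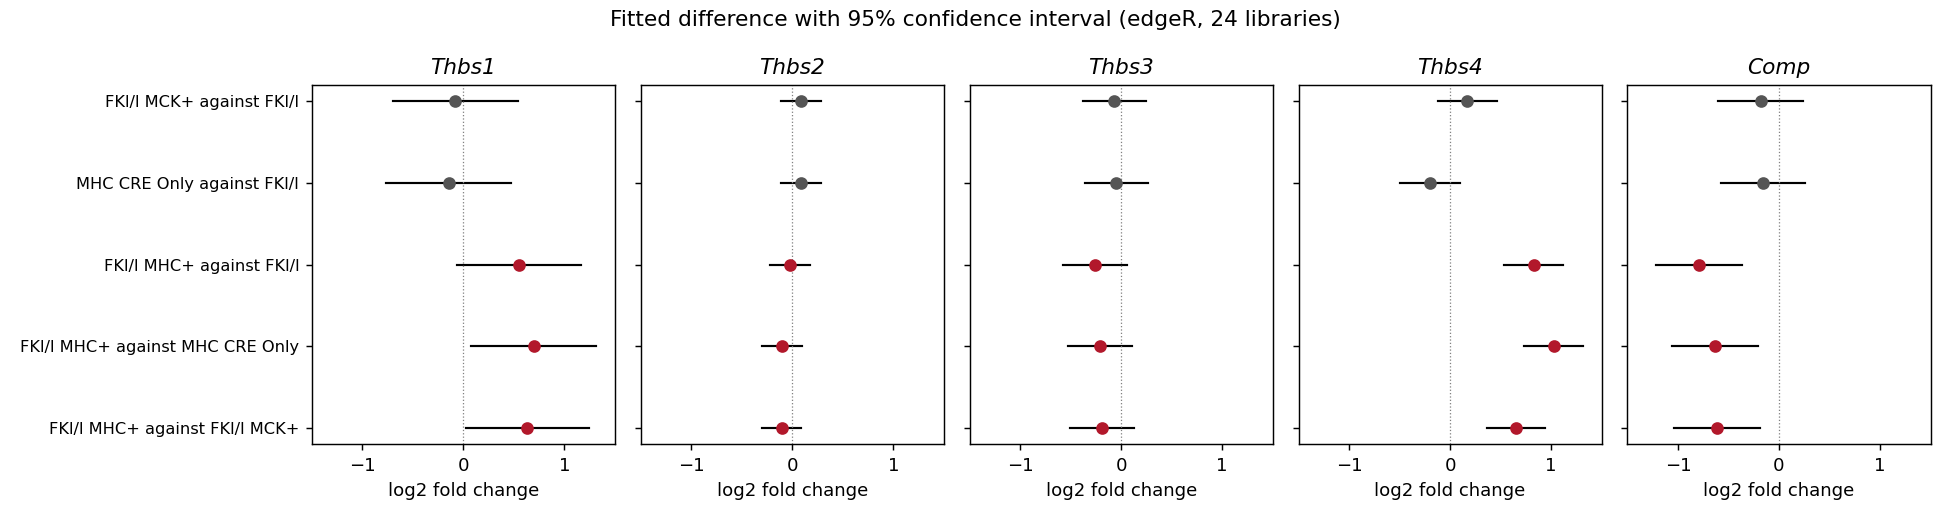
Fitted log2 fold change (horizontal axis) of each member in the 5 genotype comparisons, as points with 95% confidence intervals from edgeR over 24 libraries; red points are comparisons that contain FKl/l MHC+. The 3 Thbs4 intervals of that genotype lie above 0 (0.54 to 1.12 against FKl/l), the 3 Comp intervals lie below 0, and every Thbs2 and Thbs3 interval includes 0. Thbs4 chose the family, so its intervals are a description and no test. The intervals are not adjusted for the number of genes tested, and Comp was not called in any of those 3 comparisons.

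The authors' deposited table of comparisons gave the same sign for all 25 member values. It was made from the same libraries, so the signs are not independent of those above. For Thbs4 in FKl/l MHC+ the authors' deposited table listed log2 fold changes of 0.874 against FKl/l, 1.05 against MHC CRE Only and 0.674 against FKl/l MCK+. Their adjusted p was under 0.05 against FKl/l and MHC CRE Only and above it against FKl/l MCK+. Nothing is read from that, since Thbs4 chose the family. In the authors' deposited table Comp in FKl/l MHC+ against FKl/l was at -0.798 (their adjusted p = 0.740), and no member other than Thbs4 had an adjusted p under 0.05. The authors' statistic is 0 where the fold is small, so their p-values appear to be set against a minimum fold. The edgeR values given above are set against no change, so the 2 kinds of p-value cannot be compared directly.

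Within genotype and batch, the members did not track each other beyond what these libraries can show. Over 10 pairs and 24 libraries, with the mean of each genotype and batch removed from log2 CPM, the strongest relation was between Thbs3 and Comp (Pearson r = 0.47, permutation p = 0.0202, adjusted over the 10 pairs 0.181; Spearman rho = 0.37, permutation p = 0.0789, adjusted 0.394). It was 0.39 without the 2 libraries farthest from the Thbs3 median, 0.65 within batch 1 and -0.11 within batch 2. Thbs2 and Comp followed (Pearson r = 0.43, permutation p = 0.0362, adjusted 0.181; Spearman rho = 0.46, permutation p = 0.0243, adjusted 0.243), at 0.28 without the 2 farthest libraries, 0.60 within batch 1 and 0.044 within batch 2. Thbs4 and Comp were at r = 0.13 (permutation p = 0.549, adjusted 0.686) and Spearman rho = 0.17 (permutation p = 0.414, adjusted 0.518). Their r was -0.036 within batch 1 and 0.69 within batch 2. Thbs1 and Comp were at r = -0.26 (permutation p = 0.213, adjusted 0.421), with 0.20 within batch 1 and -0.71 within batch 2. The values within single batches were not tested. The permutations moved the 24 values freely although group means had been removed from them, so their p-values are likely too small.

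Pearson r of log2 CPM was taken over the 24 libraries after removal of batch means, with genotype differences kept. The 5 tested genes with the highest r were listed for each member. For Thbs4 they were Masp1, a protease of the lectin complement pathway (r = 0.86), Ankrd1, a stretch-responsive protein of the sarcomere and nucleus (0.84), Dok5 (0.83), the endothelin ligand Edn3 (0.82) and Tspan17 (0.82). For Comp they were Fmod, the collagen-binding proteoglycan fibromodulin (r = 0.83), Proser3 (0.81), Fmnl1 (0.79), the endothelial glycoprotein Vwf (0.79) and Ralgapa2 (0.79). For Thbs1 they included the immediate early genes Fosl2 (r = 0.84), Egr3 (0.83) and Egr2 (0.78), with the translation helicase Eif4a1 (0.79) and Btg2 (0.78). For Thbs3 they were Xrcc3 (r = 0.88), the cartilage layer protein Cilp2 (0.84), the matrix protein Sned1 (0.84), Cntnap1 (0.83) and Zfp512b (0.83), and for Thbs2 Frs2 (r = 0.78), Zzz3 (0.76), Klf3 (0.76), Mxi1 (0.75) and Cog7 (0.75). The genes similar to Thbs1 owed more to batch 2, where Egr2 reached 0.90 against 0.28 within batch 1. High r follows from picking the top of all tested genes, and these values were not tested. For Thbs4 the genotype difference that chose the family was kept, so genes that differ in FKl/l MHC+ can rank high.

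For the receptors and pathway genes of thrombospondins, the share of all genes called was 1.71% in FKl/l MHC+ against FKl/l, 1.87% against MHC CRE Only and 2.15% against FKl/l MCK+. The lists of pathway genes were tested with all 24 libraries. They were not tested without the library labelled MHC CRE Only 1-3, or without MHC CRE Only 2-3 and FKl/l 1-1, which held airway transcripts. Of 17 receptor genes, 0 were called by edgeR in 4 of the 5 genotype comparisons, and 1 in FKl/l MHC+ against MHC CRE Only, beside 1.87% of all genes. This was Itga3, an integrin alpha chain, which was lower there (-0.35, SE 0.0910, edgeR adjusted p = 0.0384). The median log2 fold change of the list in FKl/l MHC+ against FKl/l was -0.057, beside -0.0035 for all genes. Cd36, the scavenger receptor for type 1 repeats and for fatty acids, was at -0.057 in that comparison (edgeR adjusted p = 0.818), and Cd47, the receptor for the carboxyl end, at 0.031 (edgeR adjusted p = 0.857). Itgb1 and Itga7, the integrin chains that join cardiomyocytes to laminin, were at -0.021 (edgeR adjusted p = 0.912) and 0.037 (edgeR adjusted p = 0.886).

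In the latent TGF-beta pathway, which Thbs1 can activate, a binding protein and a ligand were called in opposite directions. Of 16 genes tested, 0 were higher and 1 lower in FKl/l MHC+ against FKl/l, and 1 was higher and 1 lower against both MHC CRE Only and FKl/l MCK+. Ltbp4, which holds latent TGF-beta in elastic fibres, was lower at -0.44 (SE 0.0882, edgeR adjusted p = 0.00527), -0.48 (SE 0.0882, edgeR adjusted p = 0.00381) and -0.51 (SE 0.0882, edgeR adjusted p = 0.00201) in these 3 comparisons, which share the FKl/l MHC+ libraries. Tgfb2, a TGF-beta ligand, was higher against MHC CRE Only (0.56, SE 0.113, edgeR adjusted p = 0.00740) and FKl/l MCK+ (0.48, SE 0.113, edgeR adjusted p = 0.0217), and was at 0.33 against FKl/l (SE 0.112, edgeR adjusted p = 0.132). Tgfb1 was at 0.035 against FKl/l (edgeR adjusted p = 0.882). The list's medians in the 3 comparisons were -0.0076, -0.028 and -0.022, beside -0.0035, -0.016 and -0.0071 for all genes. Neither FKl/l MCK+ nor MHC CRE Only against FKl/l had a called gene in this list.

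Other matricellular proteins, secreted modulators that share with thrombospondins the role of tuning cell and matrix contact, included Sparcl1 and the fibulins among their called genes. Of 18 tested, 2 were lower in FKl/l MHC+ against FKl/l, 1 against MHC CRE Only and 4 against FKl/l MCK+, beside 1.71%, 1.87% and 2.15% of all genes called in either direction, and 0 were higher. Sparcl1, a relative of SPARC made in vessels, was lower in all 3 (-0.34, edgeR adjusted p = 0.00760; -0.28, edgeR adjusted p = 0.0346; -0.39, edgeR adjusted p = 0.00269). Ccn3, a CCN family protein, was lower against FKl/l (-0.67, SE 0.166, edgeR adjusted p = 0.0302). Against FKl/l MCK+ the others were the fibulins Fbln1 (-0.41, edgeR adjusted p = 0.0173) and Fbln5 (-0.37, edgeR adjusted p = 0.0232) and Smoc2 (-0.28, edgeR adjusted p = 0.0459). Fbln1 was also the single called gene of all 7 pathway lists in FKl/l MCK+ against FKl/l, where it was higher (0.55, SE 0.0939, edgeR adjusted p = 0.00859). Postn, periostin, and Sparc were at -0.10 (edgeR adjusted p = 0.782) and 0.066 (edgeR adjusted p = 0.867) in FKl/l MHC+ against FKl/l. The list's median there was -0.12.

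Collagens and other matrix partners that thrombospondins bind showed 0 called genes of 20 tested in 4 comparisons. Against FKl/l MCK+, 1 was lower in FKl/l MHC+, the matrix metalloproteinase Mmp2 (-0.32, SE 0.0862, edgeR adjusted p = 0.0443). Col1a1 was at 0.11 (edgeR adjusted p = 0.803) and Fn1, fibronectin, at -0.21 (edgeR adjusted p = 0.219) in FKl/l MHC+ against FKl/l, where the list's median was 0.020. Among 40 tested proteins with type 1 repeats, 1 was lower against FKl/l (Ccn3, also in the matricellular list), 0 were called against MHC CRE Only, and 1 was lower against FKl/l MCK+ (Hmcn1, hemicentin, at -0.42, edgeR adjusted p = 0.0488).

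The targets of ATF6, the endoplasmic reticulum stress sensor that Thbs4 is known to bind, were called in different numbers against the 2 controls, and that difference was not tested. Of 22 tested, 1 was higher and 0 lower in FKl/l MHC+ against FKl/l, and 0 were called against FKl/l MCK+. The higher gene was Rcan1, a calcineurin inhibitor (0.61, SE 0.134, edgeR adjusted p = 0.0160), which is regulated by calcineurin as well as by ATF6. Against MHC CRE Only 7 were lower and 0 higher, beside 1.87% of all genes called, led by Manf (-0.57, edgeR adjusted p = 0.00187), the chaperone Hyou1 (-0.34, edgeR adjusted p = 0.00291), the ubiquitin ligase Syvn1 (-0.36, edgeR adjusted p = 0.00394) and Creld2 (-0.32, edgeR adjusted p = 0.0316). Hspa5, the main chaperone of the compartment, was at -0.33 in that comparison (edgeR adjusted p = 0.0388) and at -0.067 against FKl/l (edgeR adjusted p = 0.756). In MHC CRE Only against FKl/l 0 of the 22 were called, with Hspa5 at 0.26 (edgeR adjusted p = 0.176) and a list median of 0.17, beside 0.0038 for all genes. The list's medians in FKl/l MHC+ were -0.049 against FKl/l, -0.18 against MHC CRE Only and 0.0052 against FKl/l MCK+. Atf6 itself was at 0.13 in FKl/l MHC+ against FKl/l (edgeR adjusted p = 0.596). The calls against MHC CRE Only were not tested without MHC CRE Only 2-3, the library highest in airway transcripts.

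The adhesion complexes of the muscle membrane, which Thbs4 is known to help stabilise, held a single gene called in all 3 comparisons of FKl/l MHC+. Of 17 tested, 1 was lower against FKl/l, 2 against MHC CRE Only and 3 against FKl/l MCK+, and 0 were higher. The shares of all genes called in either direction were 1.71%, 1.87% and 2.15%. Dmd, dystrophin, was lower at -0.82 (SE 0.0755, edgeR adjusted p = 1.08e-07), -0.49 (SE 0.0755, edgeR adjusted p = 0.000511) and -0.78 (SE 0.0755, edgeR adjusted p = 7.45e-07). The laminin chain Lamb1 was lower against MHC CRE Only (-0.32, edgeR adjusted p = 0.0199) and FKl/l MCK+ (-0.29, edgeR adjusted p = 0.0285), and Lama2 against FKl/l MCK+ (-0.33, edgeR adjusted p = 0.00641). The list's medians were 0.037, -0.062 and 0.0040. Of 10 endothelial markers, 1 was called lower against FKl/l, 1 against MHC CRE Only and 7 against FKl/l MCK+, beside the same shares of all genes. Their sum ran from 672 to 831 CPM in FKl/l MHC+, 720 to 955 in FKl/l, 751 to 890 in MHC CRE Only and 813 to 1069 in FKl/l MCK+, and their part in the differences of the matrix and adhesion genes was not tested.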

How the data were processed

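Whole hearts of 4 genotypes were sequenced in 24 libraries from a directional kit. Per the submitters' processing notes, bcl2fastq 2.17, FastQC, Trim Galore, STAR and RSEM were used with build mm10. Their settings, the annotation and the use of strand in counting were not given in the sources used here. The authors deposited a table of whole-number counts for 56384 entries, of which 52724 name a gene; the other 3660, named by transcript, held 0.873 to 4.28% of counts and were left out. The authors' deposited table of comparisons gives log2 fold changes, a statistic used here as a score, p-values and adjusted p-values. All columns were mapped, with 0 left over, by the tag in the sample titles.

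Genes passing edgeR's filterByExpr (16018) were scaled by TMM and fitted with edgeR 4.0.16 in R 4.3.3 (robust quasi-likelihood F-test, batch and genotype, all 24 libraries). The interaction of genotype and batch was tested in a second fit. Alternatives were DESeq2 1.42.0, limma 3.58.1 with voom, other scalings, filters and sets of libraries, and a test against a fold of 1.2. Log2 CPM used a prior count of 2. Tested on simulated counts for FKl/l MHC+ against FKl/l (15769 genes), the fit recovered 72% of changes of 0.6 and 92% of changes of 1 on the log2 scale and called 6 unchanged genes. The simulated counts had no batch effect and no deviation shared by the genes of a library, and the changed genes were above 1 CPM. These shares need not hold for the real libraries. No libraries of a genotype were duplicates (chi-square per degree of freedom 8.37 to 157). Correlations used permutation tests.

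The family and the gene lists were chosen with earlier results of these data known. Named genes are the members, Fkbp1a, up to 4 called genes of each pathway list with the smallest adjusted p in each comparison, Cd36, Cd47, Itgb1, Itga7, Tgfb1, Tgfb2, Atf6, Hspa5, Postn, Sparc, Fn1 and Col1a1, and the 5 most similar genes of each member; predicted gene names were left out of the last. Marker genes named beside a result were chosen after their values were seen. Coordinates are from GENCODE M21 (GRCm38, the assembly of mm10), which held 51939 of the gene entries, and promoters from RefSeq.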

Additional observations from a re-analysis of the deposited data

Results flagged for a closer look

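In 4 of 20 groups of 6 libraries (5 members in 4 genotypes), the gap between the highest library and its nearest neighbour, over the whole range, was above Dixon's 95% limit of 0.625; chance flags about 1 in 20 groups. Thbs4 in FKl/l 1-1 was at 10.3 CPM with the next FKl/l library at 6.52 CPM. Comp in FKl/l 1-3 was at 26.0 CPM with the next at 13.0 CPM, and Thbs3 in the same library was at 8.95 CPM with the next at 6.25 CPM. Comp in the library labelled MHC CRE Only 1-3 was at 17.8 CPM with the next at 11.8 CPM. All 4 are batch 1 libraries of the control genotypes. The 2 high Thbs1 libraries of FKl/l MHC+ do not meet the limit, since they lie close to each other.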

How the results depend on the processing

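Called members, 1 of 5 in each comparison of FKl/l MHC+, became 2 against FKl/l with DESeq2 size factors, DESeq2, limma voom, the replicate block, and on leaving out the library labelled MHC CRE Only 1-3. They became 2 against MHC CRE Only with DESeq2 and in batch 2 alone, and 2 against FKl/l MCK+ with DESeq2. In batch 1 alone they were 0 in all 3, and against FKl/l MCK+ 0 against a fold of 1.2. Between batches 2 became 1 against a fold of 1.2. Without a filter on low counts the interaction had 1 (Thbs1). Leaving out each library gave 1 to 2 against FKl/l, 1 to 2 against MHC CRE Only, 1 to 2 against FKl/l MCK+, 2 to 3 between batches and 0 to 1 for the interaction. Of settings chosen after seeing the data, leaving out FKl/l MHC+ 2-2 and 2-3 gave 1 between batches, leaving out FKl/l 1-3, FKl/l MCK+ 1-2 and MHC CRE Only 1-3 gave 2 against FKl/l MCK+, and the fibroblast term gave 0 there. No called member changed sign in 1000 values; 27 uncalled values did. Numbers within batches do not pair the libraries (correlations of same-numbered libraries -0.24 to 0.16, median -0.027, over 0.1 in 3 of 36, best match in 4 of 36). Over all genes, DESeq2 called 20, 553, 591, 207 and 578 where edgeR called 8, 274, 299, 7 and 345 (FKl/l MCK+, FKl/l MHC+ against FKl/l, against MHC CRE Only, MHC CRE Only, FKl/l MHC+ against FKl/l MCK+); a fold of 1.2 left 3, 42, 17, 2 and 17, and no batch term 5, 120, 42, 4 and 103. Members had 112 to 1129 counts a library, which limits small differences.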
